A study of Mus musculus with 30 samples.

Results

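RNA of skeletal muscle was followed through liver pools by 30 genes of the contractile apparatus, of calcium handling and of muscle energy supply, out of 41388 genes in the deposited tables. The 30 genes were listed by name and were chosen by their levels in these same liver pools, above all in 1 wild-type C57BL/6J pool and in the knockout pools. Their liver levels are therefore a description and carry no test. The livers came from mice of 12 months. They made up 3 pools of A1cf-knockout mice beside 3 pools of wild-type C57BL/6NJ mice, and 4 pools labelled A1cf-transgenic (A1cf_Tg/+, Tg below) beside 4 pools of wild-type C57BL/6J mice. A pool held RNA of 3 to 4 mice. Hepatocytes of 12-week-old mice, freed from the liver by collagenase and plated overnight on collagen, gave 3 pools labelled Tg and 3 wild-type pools. CLIP libraries, which hold the RNA recovered with A1CF, were made from Tg hepatocytes and numbered 10. The labels do not give the sex of the mice, the promoter behind the transgene, or whether any mouse is in more than 1 pool, and a p-value below speaks of these pools only.

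A1cf, the gene that the study altered, encodes an RNA-binding partner of the cytidine deaminase that edits Apob mRNA. It stood at 24.5, 20.1 and 28.9 CPM (counts scaled to the total of each library) in knockout livers, against 237, 203 and 199 CPM in C57BL/6NJ livers. In livers labelled Tg it stood at 163, 156, 159 and 174 CPM, against 279, 217, 216 and 218 CPM in C57BL/6J livers. In livers labelled Tg A1cf fell by 0.65 ± 0.11 on the log2 scale (SE; edgeR quasi-likelihood test, Benjamini-Hochberg adjusted p = 0.0369 with C57BL/6J pool 2; 0.0325 without it), which goes against the label. In hepatocytes labelled Tg A1cf had 7.36, 9.83 and 10.5 CPM, against 6.46, 10.6 and 11.0 CPM in wild-type hepatocytes. Whether the tables can count a transgene is not given in the sources used here. Total counts ran from 28753525 to 30600063 in knockout livers and from 25888485 to 35365817 in C57BL/6NJ livers. They ran from 18308368 to 20711360 in livers labelled Tg and from 17044839 to 25315849 in C57BL/6J livers.

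Pool 2 of the C57BL/6J livers stood apart from the other 13 liver pools in more than muscle RNA. Xist, the RNA that coats the inactive X chromosome, was at 935 CPM in pool 2 and at 3.91 CPM or less in the other liver pools. Ddx3y, a Y-linked gene, was at 0.198 CPM in pool 2, against 62.2, 71.3 and 68.3 CPM in C57BL/6J pools 1, 3 and 4. It was at 30.5 CPM or more in all of the other 13 liver pools. By both genes pool 2 reads as RNA of female mice and the other 13 liver pools as RNA of male mice. The summed CPM and the main edgeR fit of livers labelled Tg against C57BL/6J livers are therefore given with and without pool 2. DESeq2, the replicate block and the fit over 4 liver groups were run only with pool 2 included. Whether the muscle RNA of pool 2 goes with sex was not tested, since no other liver pool read as female. The hepatocyte list (10 genes such as Alb and Apob) summed to 119922 CPM in pool 2 and to 122493 to 125279 CPM in the other C57BL/6J pools.

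A skeletal muscle fibre is packed with sarcomeres, in which thick filaments of myosin pull on thin filaments of actin. Troponin on the thin filament answers to calcium that the ryanodine receptor releases from the sarcoplasmic reticulum, and a calcium pump returns it. Fibres are typed by their myosin heavy chain: Myh7 marks slow fibres, and Myh2, Myh1 and Myh4 mark the fast types IIa, IIx and IIb in mouse. Hepatocytes have no sarcomeres, and the liver borders on the diaphragm, a striated muscle. In pools of whole tissue, more muscle in the sample and more RNA per muscle cell cannot be told apart.

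The start regions of 4 members are shown because Acta1 and Ckm are the usual markers of muscle fibres and because Myh1 and Myh4 kept different proportions between pools. They run from 250 bases before to 50 bases after the RefSeq start (GRCm38.p6, the build of the tables), 5′ to 3′ on the gene's strand, with each E-box in capitals. The E-box, CANNTG on either strand, is the motif bound by MyoD and its relatives. The regions are chr8:123894726-123895025 (minus strand) for Acta1, chr7:19410844-19411143 (plus) for Ckm, chr11:67199852-67200151 (plus) for Myh1 and chr11:67237562-67237861 (plus) for Myh4.
Acta1: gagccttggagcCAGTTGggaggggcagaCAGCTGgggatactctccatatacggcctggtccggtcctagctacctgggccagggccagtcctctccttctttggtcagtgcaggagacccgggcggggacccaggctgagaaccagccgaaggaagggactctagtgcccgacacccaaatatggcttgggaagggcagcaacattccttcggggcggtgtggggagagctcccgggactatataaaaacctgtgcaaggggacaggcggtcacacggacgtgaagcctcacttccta
Ckm: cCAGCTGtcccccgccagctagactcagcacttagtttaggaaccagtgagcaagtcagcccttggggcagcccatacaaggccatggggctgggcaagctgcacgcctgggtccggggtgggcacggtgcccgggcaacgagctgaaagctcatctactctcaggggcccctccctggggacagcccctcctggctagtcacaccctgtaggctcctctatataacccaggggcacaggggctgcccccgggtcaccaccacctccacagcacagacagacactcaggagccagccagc
Myh1: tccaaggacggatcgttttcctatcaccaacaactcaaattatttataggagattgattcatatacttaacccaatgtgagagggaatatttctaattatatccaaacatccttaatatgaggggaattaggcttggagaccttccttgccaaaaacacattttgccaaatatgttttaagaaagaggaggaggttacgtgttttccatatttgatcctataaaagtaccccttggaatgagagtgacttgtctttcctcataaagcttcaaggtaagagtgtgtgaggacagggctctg
Myh4: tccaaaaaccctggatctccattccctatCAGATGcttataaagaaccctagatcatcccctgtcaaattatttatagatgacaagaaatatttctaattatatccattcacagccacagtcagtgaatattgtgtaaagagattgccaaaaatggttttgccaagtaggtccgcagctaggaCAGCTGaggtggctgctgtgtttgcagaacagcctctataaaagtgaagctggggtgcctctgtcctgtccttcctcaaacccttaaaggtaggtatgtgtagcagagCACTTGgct

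Acta1 held 2 E-boxes, Ckm 1, Myh4 3 and Myh1 none in this window. Promoter sequences of RefSeq were at hand for 22 of the 30 genes, and 18 of these (81.8%) held an E-box, against 72.1% of all 27025 promoters of this length. The MEF2 motif, bound by another family of muscle regulators, was in 6 of the 22 (27.3%), Myh1 and Myh4 included, and in 3.26% of all promoters. The CArG box, bound by serum response factor, was in Acta1 and Myh4 only among the 22, and in 1.57% of all promoters. The letters TATAAA were in 6 of the 22 and in 14.2% of all. Both strands were searched, and the MEF2 and TATAAA letters can overlap. A match is a description of these letters and not a site.

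Summed over the 30 genes, muscle RNA was at 375, 105 and 299 CPM in knockout livers, against 82.3, 89.6 and 69.5 CPM in C57BL/6NJ livers. Livers labelled Tg had sums of 88.3, 154, 150 and 179 CPM, and C57BL/6J livers had 101, 6406, 173 and 117 CPM in pools 1 to 4. The high value is pool 2, at 17.1 times the next highest liver pool, and it held 0.641% of all counts of that library (95% Wilson interval 0.638% to 0.644%). Intervals here and below cover counting error only.

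Outside the knockout pools and C57BL/6J pool 2, most of the sum was 1 gene. Neb, which encodes nebulin, the giant protein that runs along the thin filament, made up 84.4% to 94.3% of the sum in the other 10 liver pools. Without Neb, the remaining 29 genes summed to 303, 59.4 and 222 CPM in knockout livers, against 7.22, 5.07 and 5.26 CPM in C57BL/6NJ livers. The same sum was 13.8, 12.6, 12.9 and 14.6 CPM in livers labelled Tg, and 13.5, 5995, 11.3 and 6.69 CPM in C57BL/6J livers. All 3 knockout pools then stood above every C57BL/6NJ pool, the lowest of them by 8.23 times the highest C57BL/6NJ pool.

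**Figure D1:**
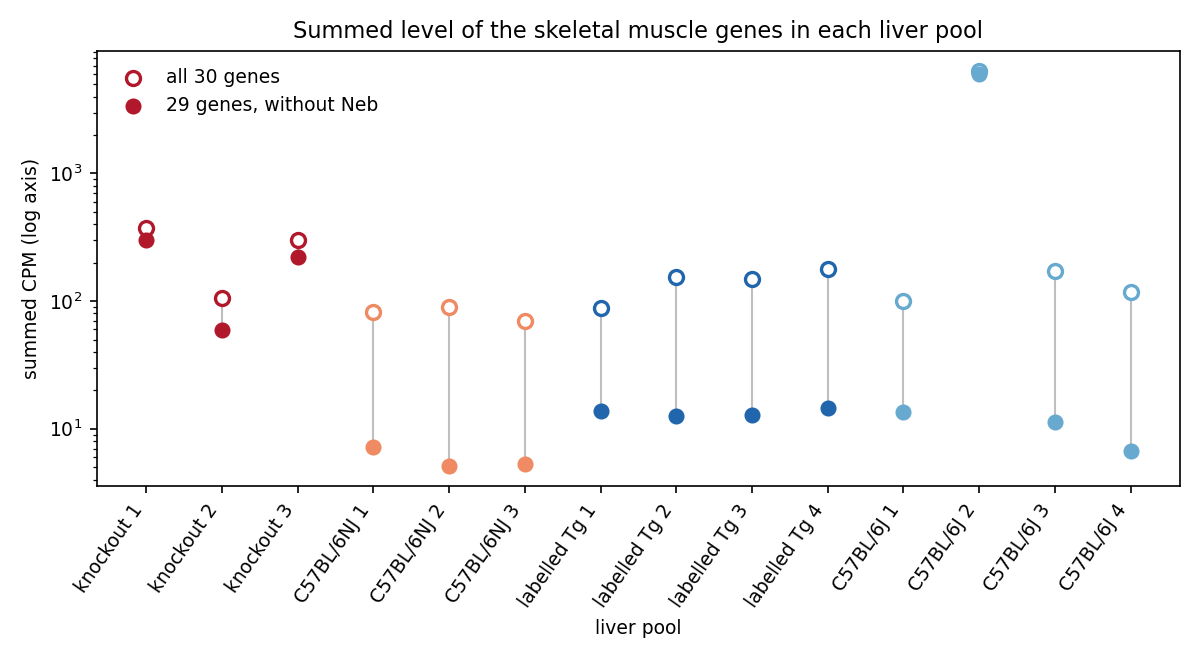
Summed CPM of the muscle genes (log axis) in each of 14 liver pools, with all 30 genes (open circles) and without Neb (filled circles). C57BL/6J pool 2 lies at 6406 CPM, the knockout pools lie at 59.4 to 303 CPM without Neb, and the other 10 pools lie at 5.07 to 14.6 CPM without Neb.

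Thin filament genes come first. Acta1 (ENSMUSG00000031972, chromosome 8, 123891767 to 123894736, minus strand, GRCm38), the actin of adult skeletal muscle, was at 44.8, 8.21 and 34.2 CPM in knockout livers, against 0, 0.0885 and 0.0566 CPM in C57BL/6NJ livers. It was at 0.710, 0.402, 0.531 and 0.163 CPM in livers labelled Tg, against 0.969, 778, 0.607 and 0.880 CPM in C57BL/6J livers. Knockout and C57BL/6NJ pools did not overlap, and pool 2 held 17.3 times the next highest liver value, which was knockout pool 1.

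Tnnt3, fast troponin T, was at 10.9, 1.32 and 6.70 CPM in knockout livers, against 0, 0.0295 and 0 CPM in C57BL/6NJ livers. Tnni2, fast troponin I, was at 6.63, 1.25 and 4.50 CPM in knockout livers, against 0.0773, 0.0295 and 0 CPM in C57BL/6NJ livers. In C57BL/6J pool 2 Tnnt3 was at 250 CPM and Tnni2 at 118 CPM, and neither passed 0.402 CPM in any other Tg-labelled or C57BL/6J pool. The slow forms were lower than the fast ones in the knockout pools and pool 2, while Tnnt1 was above Tnnt3 in each of the other 10 liver pools. Tnnt1, slow troponin T, was at 13.7 CPM in pool 2 and at 0.850, 0.556 and 0.609 CPM in knockout livers, against 0.0773, 0.472 and 0.226 CPM in C57BL/6NJ livers. In livers labelled Tg Tnnt1 was at 0.929, 1.41, 0.966 and 1.25 CPM, and in C57BL/6J pools 1, 3 and 4 at 1.03, 0.882 and 0.997 CPM, all above the knockout pools. Tnni1, slow troponin I, was at 5.69 CPM in pool 2 and at 0.196, 0.0348 and 0.406 CPM in knockout livers, which overlapped the 0.116, 0.118 and 0 CPM of C57BL/6NJ livers.

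Neb (chromosome 2, 52136647 to 52338798, minus strand) behaved unlike the rest. It was at 71.7, 45.7 and 76.8 CPM in knockout livers, against 75.1, 84.5 and 64.3 CPM in C57BL/6NJ livers, and the ranges overlapped. It was at 74.6, 142, 137 and 164 CPM in livers labelled Tg, against 87.6, 411, 162 and 110 CPM in C57BL/6J livers. In plated hepatocytes it was at 0.430, 0.791 and 2.98 CPM in pools labelled Tg and at 1.20, 5.58 and 2.22 CPM in wild-type pools. Neb was thus read in every liver pool, also where Acta1 was under 1 CPM, and its exons share 45 of 26582 bases with a gene on the other strand. Tnnc2, fast troponin C, had no count in any liver pool but pool 2, where it had 10 counts. In the annotation, 74.0% of its exon bases overlap Ube2c on the opposite strand, and the strand setting of the counting is not given in the sources used here, so its level could not be read.

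Of the thick filament, the fast myosin heavy chain genes Myh2, Myh1 and Myh4 lie side by side on the plus strand of chromosome 11, at 67171027 to 67197517, 67200052 to 67224575 and 67238029 to 67260446. Myh1 (IIx) was at 22.4, 1.50 and 9.98 CPM in knockout livers, against 0, 0 and 0.0566 CPM in C57BL/6NJ livers. Myh2 (IIa) was at 21.1, 2.75 and 11.6 CPM in knockout livers and had no count in C57BL/6NJ livers. Myh4 (IIb) was at 0.817, 3.48 and 15.8 CPM in knockout livers and had no count in C57BL/6NJ livers. The order of the knockout pools was therefore not the same for Myh4 as for Myh1 and Myh2: pool 1 was highest for Myh1 and Myh2 and lowest for Myh4. In C57BL/6J pool 2 Myh1 was at 324 CPM, Myh2 at 247 CPM and Myh4 at 113 CPM, and no other Tg-labelled or C57BL/6J pool passed 0.551 CPM for any of them.

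Light chains and myosin-binding proteins follow. Mylpf, the fast regulatory light chain of myosin, was at 3.73, 0.974 and 2.91 CPM in knockout livers, against 0.657, 0.383 and 0.594 CPM in C57BL/6NJ livers. Myl1, the fast essential light chain, was at 1.96, 1.04 and 3.11 CPM in knockout livers and at 0.0386 CPM or less in C57BL/6NJ livers. The slow and fast myosin-binding proteins C, Mybpc1 and Mybpc2, were at 3.30, 0.556 and 1.96 CPM and at 0.719, 0.591 and 1.52 CPM in knockout livers, and neither passed 0.0773 CPM in C57BL/6NJ livers. In pool 2 the 4 genes were at 66.5, 27.2, 73.5 and 37.0 CPM, in the order named.

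Ttn (chromosome 2, 76703980 to 76982547, minus strand) encodes titin, the molecular spring of the sarcomere, and it had the highest CPM of the list in pool 2. It was at 112, 25.1 and 80.9 CPM in knockout livers, against 4.09, 2.36 and 2.35 CPM in C57BL/6NJ livers. It was at 8.96, 4.67, 6.28 and 5.26 CPM in livers labelled Tg, against 6.10, 2747, 5.18 and 1.76 CPM in C57BL/6J livers. Ttn and Neb were the only members that reached 3 CPM in a C57BL/6NJ pool, a Tg-labelled pool or C57BL/6J pools 1, 3 and 4. Tcap, telethonin, which caps titin at the Z-disc, was at 6.44, 0.626 and 3.92 CPM in knockout livers and at 0.0773 CPM or less in C57BL/6NJ livers. Xirp2, an actin-binding protein of muscle attachment sites, was at 5.03, 1.04 and 3.15 CPM in knockout livers and had no count in C57BL/6NJ livers. The Z-disc crosslinkers Actn2, found in all fibres, and Actn3, found in fast fibres, were at 4.48, 0.278 and 1.39 CPM and at 0.261, 0.765 and 1.86 CPM in knockout livers. Myot, myotilin, was at 2.48, 0.278 and 0.879 CPM in knockout livers, with no count in C57BL/6NJ livers, and at 0.773 and 1.84 CPM in pools 3 and 4 labelled Tg. In pool 2 these 5 genes after Ttn stood between 20.0 CPM (Actn3) and 116 CPM (Xirp2).

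Among calcium-handling genes, Atp2a1, the calcium pump of fast fibres, was at 13.1, 2.71 and 11.2 CPM in knockout livers, against 0.386, 0.236 and 0.141 CPM in C57BL/6NJ livers. Ryr1, the calcium release channel, was at 11.7, 1.77 and 6.73 CPM in knockout livers, against 0.541, 0.0885 and 0.339 CPM in C57BL/6NJ livers. Cacna1s, the voltage sensor that opens it, was at 3.20, 0.556 and 2.13 CPM in knockout livers, against 0.155, 0.0590 and 0.170 CPM in C57BL/6NJ livers. Casq1 stores calcium in the reticulum, Trdn anchors it to the channel and Pvalb buffers calcium in fast fibres. These 3 genes stayed at 1.25 CPM or less in knockout livers, and Casq1 was at 0.141 to 0.309 CPM in C57BL/6NJ livers. In pool 2 the 6 genes ran from 13.1 CPM (Trdn) to 273 CPM (Atp2a1).

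Of the genes of energy and oxygen supply, Ckm (chromosome 7, 19411094 to 19421583, plus strand), the creatine kinase of muscle, was at 8.73, 0.939 and 6.53 CPM in knockout livers, against 0.0386, 0 and 0.113 CPM in C57BL/6NJ livers. Mb, myoglobin, was at 10.3, 0.765 and 4.84 CPM in knockout livers and had no count in C57BL/6NJ livers. Cox6a2, a muscle subunit of cytochrome c oxidase, was at 3.59, 0.835 and 1.35 CPM in knockout livers, against 0, 0.177 and 0.170 CPM in C57BL/6NJ livers. Pgam2, the muscle phosphoglycerate mutase, was at 1.63, 0.591 and 1.45 CPM in knockout livers, against 0.425, 0.590 and 0.650 CPM in C57BL/6NJ livers, so that knockout pool 2 lay inside the C57BL/6NJ range. In pool 2 of the C57BL/6J livers Ckm was at 174 CPM, Mb at 160 CPM, Cox6a2 at 38.8 CPM and Pgam2 at 18.8 CPM.

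**Figure D2:**
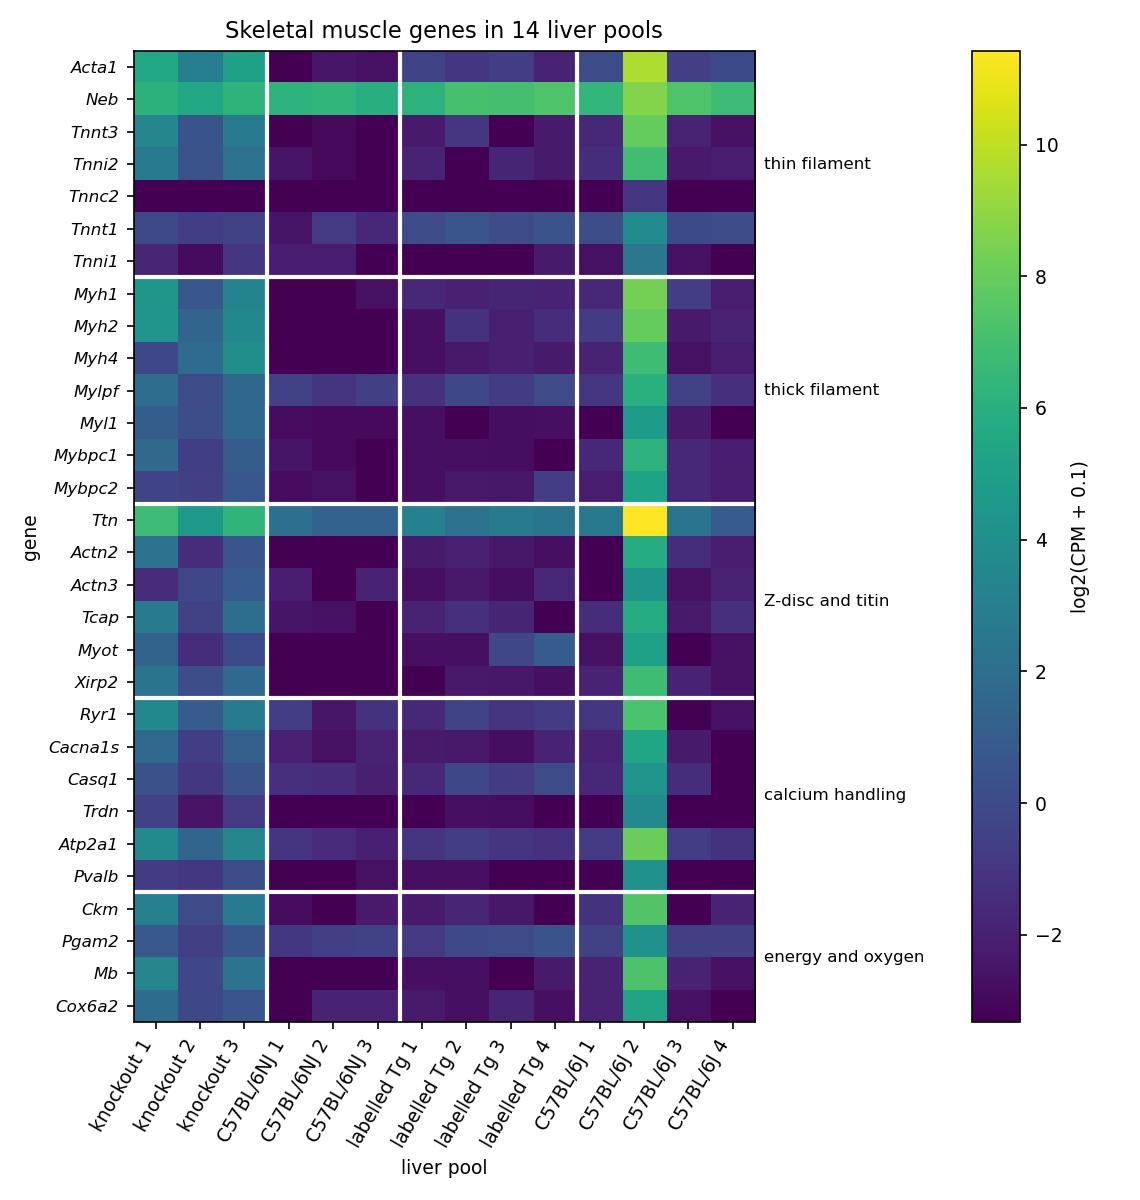
Level of each of the 30 genes, as log2(CPM + 0.1) by colour, in 14 liver pools (columns, by group) with genes grouped by role (rows). C57BL/6J pool 2 is the brightest column for all 30 genes, the knockout pools follow with pool 2 of them the faintest, and Neb is the only row that is bright in every pool.

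Across the list, C57BL/6J pool 2 was above the other 13 liver pools for 30 of 30 genes, and at least 10 times the next pool for 24 of them. The share of all genes that were highest in that pool was not computed. Knockout pools 1 and 3 were each above all 3 C57BL/6NJ pools for 28 of 30 genes, all but Neb and Tnnc2, and knockout pool 2 for 26 of 30. For a single knockout pool the share of all genes above all 3 C57BL/6NJ pools was not computed, so these counts have no background beside them. After a filter on low counts 24 members were tested between knockout and C57BL/6NJ livers, and 6 (Tnnc2, Tnni1, Actn2, Actn3, Myot and Trdn) were not. In edgeR's quasi-likelihood fit over 15942 genes, 20 of the 24 rose and none fell at a Benjamini-Hochberg adjusted p below 0.05, while 1.50% of all genes tested rose. The members were chosen by these values, and a gene passes the filter through the group where it is high, so the count describes the choice. All 3 knockout pools lay above all 3 C57BL/6NJ pools for 22 of the 24, and for 12.0% of all genes tested. The 4 tested members that did not pass were Casq1, Neb, Tnnt1 and Pgam2.

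The count was 9 of 28 without C57BL/6NJ pool 2, where 97 of 16388 genes tested rose. It was 13 of 28 without C57BL/6NJ pool 3, where 134 of 16348 rose. When all 4 liver groups shared 1 estimate of spread it was 0 of 28, where 22 of 16295 rose. Among members with more than 3 counts in the C57BL/6NJ group, Acta1 had a log2 fold change of 9.01 ± 0.91 (SE), given with no p since these values chose the members. Ttn had 4.66 ± 0.52, Atp2a1 5.18 ± 0.65 and Ckm 6.58 ± 1.01. Neb had -0.21 ± 0.19. Where the C57BL/6NJ group had no count, the fold is a bound against 3 counts over that group: Myh2 was at least 381-fold higher in knockout livers, Myh4 at least 211-fold and Mb at least 171-fold. Tnnt3, with 571 counts against 1, had a ratio of 611 (exact 95% counting interval 109 to 24180), and Myh1, with 1022 counts against 2, had a ratio of 547 (151 to 4522).

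Between livers labelled Tg and C57BL/6J livers, the summed CPM of the 30 genes averaged 143 ± 38.5 and 1699 ± 3138 (SD, n = 4 each), a difference of -1557 CPM. Without pool 2 the C57BL/6J mean was 130 ± 37.9 CPM (SD, n = 3) and the difference was 12.4 CPM, with the opposite sign. The low-count filter kept 6 members, and 0 of 6 passed in edgeR's fit, where 1.33% of all genes did; 4 of the 6 had an unadjusted p below 0.05 and DESeq2 called 0. Acta1 had a log2 fold change of -8.81 ± 2.65 with pool 2 and -1.0 ± 0.46 without it. Ttn had -6.85 ± 2.29 with pool 2 and 0.37 ± 0.41 without it. Without pool 2 again 0 of 6 passed, 0 had an unadjusted p below 0.05, and 2.69% of all genes passed.

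No muscle library is among the tables, so proportions among the genes were compared between pools and a match to muscle tissue was not tested. Relative to C57BL/6J pool 2, the median member (28 genes, Neb and Tnnc2 left out) stood at 5.70% in knockout pool 1, 1.09% in knockout pool 2 and 4.24% in knockout pool 3. The spread of single genes around these medians was wide. In knockout pool 1 the range ran from 0.720% for Myh4 to 11.5% for Tcap, in knockout pool 2 from 0.461% for Myh1 to 4.06% for Tnnt1, and in knockout pool 3 from 2.49% for Actn2 to 13.9% for Myh4. Across the 28 genes, log2(RPKM + 0.01) of knockout pool 3 and of C57BL/6J pool 2 had a Pearson r of 0.937, and knockout pools 1 and 2 had the lowest r of the 6 pairs, 0.764. The points share the genes' lengths and base composition, and the correlations carry no p.

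Per length (RPKM), Acta1 was the highest of the 30 genes in all 4 of these pools, at 31.3, 5.73 and 23.9 RPKM in knockout pools 1, 2 and 3 and at 543 RPKM in C57BL/6J pool 2. In pool 2 of the C57BL/6J livers Tnnt3 followed at 180 RPKM, Mb at 128 RPKM and Ckm at 123 RPKM. In knockout pool 1 Mb followed at 8.22 RPKM, ahead of Tnnt3 at 7.87 RPKM. In knockout pool 2 Neb came next at 1.73 RPKM, and Neb was also read in livers with little Acta1.

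**Figure D3:**
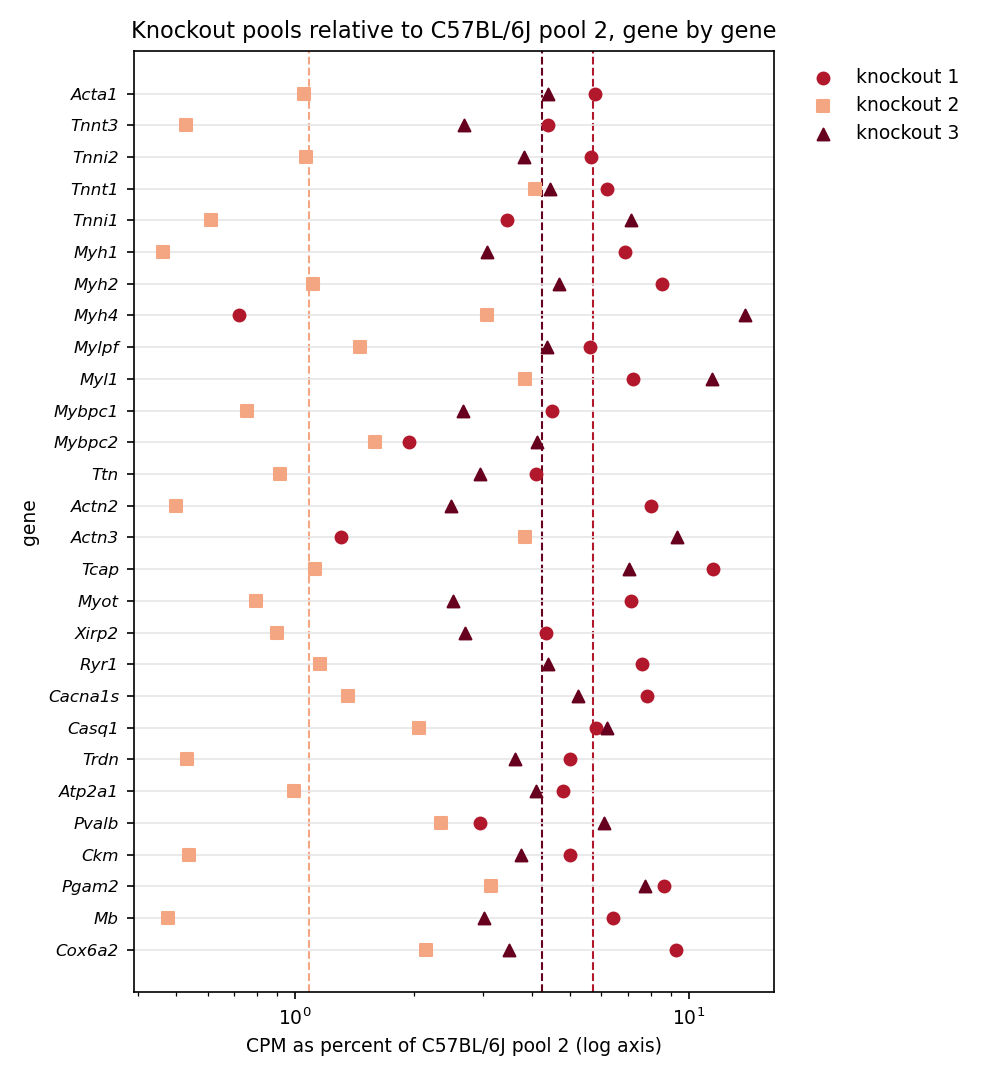
CPM of each of 28 muscle genes in the 3 knockout pools, as a percent of its CPM in C57BL/6J pool 2 (log axis), with dashed lines at the median of each pool. Knockout pool 1 lies right of knockout pool 3 for most genes but far left of it for Myh4 (0.720% against 13.9%) and Actn3 (1.31% against 9.31%).

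Among the fast myosins the proportions differed between pools. Myh4 made up 1.85% of Myh1, Myh2 and Myh4 counts in knockout pool 1 (25 of 1355 counts; 95% Wilson interval 1.25% to 2.71%). It made up 45.0% in knockout pool 2 (100 of 222; 38.6% to 51.6%) and 42.2% in knockout pool 3 (466 of 1103; 39.4% to 45.2%). In C57BL/6J pool 2 the share was 16.6% (2871 of 17342; 16.01% to 17.1%). The interval of knockout pool 1 and that of C57BL/6J pool 2 overlapped no other, while those of knockout pools 2 and 3 overlapped each other. Myh1 made up 50.5%, 19.4% and 26.7% in knockout pools 1, 2 and 3 and 47.3% in C57BL/6J pool 2. The other 10 liver pools had 16 counts of the 3 genes or fewer, and no share was computed there. Of all runs of 50 bases, 18.6% in Myh4, 24.0% in Myh1 and 25.8% in Myh2 transcripts recur in another of the 5 myosin genes compared, and how reads from them were assigned is not given in the sources used here.

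**Figure D4:**
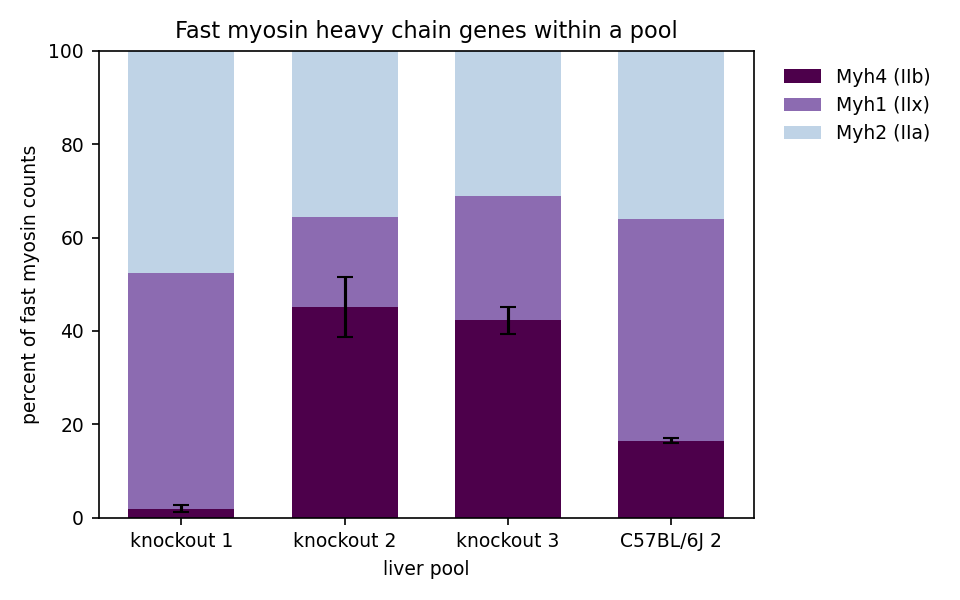
Shares of Myh4, Myh1 and Myh2 in the fast myosin counts of the 4 liver pools with at least 100 such counts; black bars are 95% Wilson intervals of the Myh4 share. Myh4 takes 1.85% in knockout pool 1, 45.0% and 42.2% in knockout pools 2 and 3, and 16.6% in C57BL/6J pool 2.

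Other genes of fast fibres were low in knockout pool 1 too. Relative to knockout pool 3, Actn3 stood at 0.141 times, Mybpc2 at 0.472 times and Pvalb at 0.483 times in knockout pool 1, while the median of the 28 genes stood at 1.39 times. This did not hold for every fast gene or for fast genes alone: Tnnt3 stood at 1.63 times, Tnni2 at 1.47 times and Atp2a1 at 1.17 times, and the slow gene Tnni1 at 0.483 times. Actn3 made up 5.52% of Actn2 and Actn3 counts in knockout pool 1 (8 of 145; 2.82% to 10.5%) and 26.4% in C57BL/6J pool 2 (506 of 1917; 24.5% to 28.4%). Mybpc2 made up 17.9% of Mybpc1 and Mybpc2 counts in knockout pool 1 (22 of 123; 12.1% to 25.6%), 43.7% in knockout pool 3 (45 of 103; 34.5% to 53.3%) and 33.5% in C57BL/6J pool 2 (31.8% to 35.3%).

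Shares of slow forms were computed in the same 4 pools. Myh7 made up 8.82% of slow and fast myosin counts in knockout pool 1 (7.48% to 10.4%), 3.90% in knockout pool 2 (2.06% to 7.24%), 3.75% in knockout pool 3 (2.80% to 5.02%) and 8.32% in C57BL/6J pool 2 (7.93% to 8.72%). Divided by length, Tnni1 made up 1.21% of troponin I in knockout pool 1, 3.62% in knockout pool 3 and 1.97% in C57BL/6J pool 2. These shares rest on 6, 12 and 144 Tnni1 counts, and by counts the intervals of the 3 pools were 1.32% to 6.12%, 4.80% to 13.9% and 3.93% to 5.41%.

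A further 70 skeletal muscle genes outside the list were counted beside the members. This list too was written with earlier results of these data known. Its calls and adjusted p-values (edgeR) in liver therefore describe these pools and are no independent test. In knockout against C57BL/6NJ livers 10 of 35 tested rose and none fell, where 1.50% of all genes tested rose, and a gene can pass the filter through the knockout group alone. The 35 had a median log2 fold change of 0.79, against -0.01 over all genes tested. Among those that rose, Cmya5, a protein of muscle costameres, had 7.39, 1.63 and 4.03 CPM in knockout livers, against 0.348, 0.472 and 0.254 CPM in C57BL/6NJ livers (log2 fold change 3.59 ± 0.56, adjusted p = 0.0108). Tpm2, a tropomyosin that smooth muscle also expresses, had 28.4, 15.3 and 25.1 CPM in knockout livers, against 9.89, 5.01 and 7.83 CPM in C57BL/6NJ livers (1.61 ± 0.27, adjusted p = 0.0146). Car3, a carbonic anhydrase shared by muscle, fat and liver, was the most abundant of the 70 and did not follow the others: it had 3564, 1868 and 4245 CPM in knockout livers, against 3884, 2982 and 3453 CPM in C57BL/6NJ livers.

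In C57BL/6J pool 2, 67 of these 70 genes were higher than in any other liver pool, among them Tpm2 at 230 CPM, Tpm1 at 142 CPM, Des (desmin) at 122 CPM and Cmya5 at 121 CPM. The share of all genes that were highest in pool 2 was not computed, so this count has no background beside it. Car3 was the reverse, at 1905 CPM in pool 2 against 5778, 5171 and 5456 CPM in C57BL/6J pools 1, 3 and 4. Without Car3 the 70 genes summed to 1781 CPM in pool 2 and to 151 to 157 CPM in the other C57BL/6J pools. In plated hepatocytes the same sum was 1144 to 1368 CPM in pools labelled Tg and 1090 to 1366 CPM in wild-type pools. A high sum on this list was therefore not particular to pool 2. Between livers labelled Tg and C57BL/6J livers 1 of 26 tested passed in edgeR's fit, where 1.33% of all genes tested did. It was Jph1, a junctophilin, which fell by 1.75 ± 0.30 on the log2 scale (adjusted p = 0.0356). Without pool 2, where 2.69% of all genes tested passed, Jph1 fell by 1.61 ± 0.31 (adjusted p = 0.0401) and Tpm1 rose by 0.94 ± 0.17 (adjusted p = 0.0356). In hepatocytes 1 of 26 tested rose, where 211 of 13770 genes tested did.

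By a rule on likeness, the 10 genes outside the list with the highest Pearson correlation to the summed members, over 14 liver pools and among 13024 genes, were Pygm, Ankrd23, Perm1, Myom1, Myl2, Cryab, Myh7, Eno3, Ckmt2 and Nrap. Their correlations of log2(CPM + 0.1) ran from 0.934 to 0.979. Pygm, the glycogen phosphorylase of muscle, led with 5.75, 2.50 and 4.13 CPM in knockout livers, against 1.62, 1.39 and 0.961 CPM in C57BL/6NJ livers, and with 100.5 CPM in C57BL/6J pool 2. The points share pool 2, which is far above the rest.

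Markers of other tissues moved with pool 2 in part. The counts of genes highest in pool 2, here and in the next paragraph, have no share over all genes beside them. Of 5 embryonic and neonatal muscle genes, 3 were highest in pool 2, where their sum was 76.4 CPM, against 0.662 to 1.29 CPM in the other C57BL/6J pools and 0.719 to 1.22 CPM in knockout livers. Most of it was Myh8, the neonatal myosin, at 71.2 CPM in pool 2 and at 0.203 CPM or less in the other 13 liver pools. Myh8 made up 8.70% of the counts of 5 myosins in pool 2 (95% Wilson interval 8.32% to 9.09%), against 0.0672%, 0.858% and 0.521% in knockout pools 1, 2 and 3.

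Of 9 heart genes, 2 were highest in pool 2, Myh6 at 10.4 CPM and Sbk2 at 2.69 CPM, while Nppa and Nppb, natriuretic peptides of the heart, had no count there. The heart list summed to 14.5 CPM in pool 2, to 0.821 to 1.71 CPM in the other C57BL/6J pools and to 1.44 to 2.23 CPM in knockout livers. Of 6 genes of skin and other layered epithelia, 5 were highest in pool 2: Krt13 at 26.9 CPM, Krt4 at 20.0 CPM, Krt5 at 5.93 CPM, Krt14 at 1.07 CPM and Krt1 at 0.198 CPM. Krt13 and Krt4, keratins of the lining of mouth and oesophagus, stood at 0.324 CPM or less in the other 13 liver pools. The epithelial list summed to 55.4 CPM in pool 2, to 0.938 to 1.53 CPM in the other C57BL/6J pools and to 1.14 to 1.77 CPM in knockout livers, where Krt1 had no count. Of 5 mesothelial genes 4 were highest in pool 2, with a list sum of 15.3 CPM, against 3.13 to 5.57 CPM in the other C57BL/6J pools. Of 6 nerve genes 4 were highest in pool 2, with a sum of 17.9 CPM, against 9.21 to 10.6 CPM in the other C57BL/6J pools. Smooth muscle genes summed to 64.4 CPM in pool 2, against 23.2 to 37.7 CPM in the other C57BL/6J pools, and 3 of 9 were highest there. Of 8 pancreatic genes 4 were highest in pool 2, each at 0.316 CPM or less, and 2 of 7 adipocyte genes were, Adipoq at 1.66 CPM and Plin1 at 1.54 CPM. The part of these tissues in the muscle values of pool 2 was not tested.

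In knockout livers the adipocyte list was higher as well. It summed to 191, 150 and 276 CPM, against 56.4, 38.4 and 84.8 CPM in C57BL/6NJ livers. Of 3 tested genes 2 rose, where 1.50% of all genes tested did. Much of the knockout sum was 1 gene, Cfd. The list was highest in knockout pool 3, while the members summed highest in knockout pool 1. Cfd, adipsin, had 118, 74.4 and 166 CPM in knockout livers, against 2.16, 2.06 and 3.17 CPM in C57BL/6NJ livers (log2 fold change 5.59 ± 0.32, adjusted p = 4.97e-05), and Lipe, a lipase, rose by 0.88 ± 0.12 (adjusted p = 0.00625). Of the defining adipocyte genes, Adipoq was at 0.392, 0 and 0.609 CPM in knockout livers, against 0, 0 and 0.141 CPM in C57BL/6NJ livers. Plin1 had 41 counts in knockout livers, against 1 in C57BL/6NJ livers (ratio 43.9, exact 95% counting interval 7.45 to 1775), and Lep had 10 counts against 2. Of the brown fat genes 1 of 3 tested rose, Cidea. Ucp1 had 18 counts in knockout livers and none in C57BL/6NJ livers, at least 6.42-fold higher in knockout livers. Of 8 smooth muscle genes tested none passed in edgeR's fit (4 had an unadjusted p below 0.05), with list sums of 22.8 to 27.9 CPM in knockout livers and 28.9 to 37.3 CPM in C57BL/6NJ livers. Of 5 mesothelial genes tested none passed (0 had an unadjusted p below 0.05), with sums of 7.48 to 7.84 CPM in knockout livers and 4.64 to 8.73 CPM in C57BL/6NJ livers. Of 5 nerve genes and 5 red cell genes none passed (0 and 2 had an unadjusted p below 0.05), of 10 hepatocyte genes 2 fell, and the 1 pancreatic gene tested fell. Over all genes, 236 of 15942 tested fell. The part of fat in the muscle values of the knockout pools was not tested.

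In plated hepatocytes, which the choice of members did not use, 26 of the 30 genes stayed under 3 CPM in all 6 pools. No count in any of them was found for Tnnt3, Tnnc2, Myh1, Myh2, Myh4, Myl1, Trdn and Pvalb, which at these depths allows up to 0.0806 to 0.115 CPM per pool. The members that reached 3 CPM in a hepatocyte pool were Acta1, Neb, Ttn and Xirp2. Ttn was at 0.403, 0.639 and 3.67 CPM in hepatocytes labelled Tg, against 0.901, 7.06 and 1.05 CPM in wild-type hepatocytes. Acta1 was at 45.8, 16.3 and 19.6 CPM in hepatocytes labelled Tg, against 8.14, 3.98 and 11.2 CPM in wild-type hepatocytes. These ranges did not overlap. The log2 fold change was 1.88 ± 0.54 and did not pass (adjusted p = 0.0947), although DESeq2 called it (adjusted p = 0.00428). Xirp2 was at 2.10, 2.92 and 2.14 CPM in hepatocytes labelled Tg, against 3.84, 4.70 and 16.3 CPM in wild-type hepatocytes, a log2 fold change of -1.74 ± 0.55 (adjusted p = 0.115; DESeq2 adjusted p = 0.0179).

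By edgeR, 0 of 10 tested members passed in hepatocytes, where 3.15% of all genes tested did, and 3 had an unadjusted p below 0.05. Without pool 3 labelled Tg 3 of 10 passed, where 4934 of 14103 genes tested did. That share of members was no higher than the share over all genes. The 3 were Acta1 and Tnnt1, higher, and Neb, lower, in hepatocytes labelled Tg. Acta1 in hepatocytes was accompanied by actins of other muscle and by few other members. Acta2, the smooth muscle actin, was at 40.9, 17.0 and 17.6 CPM in hepatocytes labelled Tg, against 7.99, 4.37 and 6.63 CPM in wild-type hepatocytes (adjusted p = 0.0599). Actc1, the heart actin, was at 20.9, 6.18 and 8.72 CPM in hepatocytes labelled Tg, against 5.02, 1.59 and 6.49 CPM in wild-type hepatocytes (adjusted p = 0.172). Adipocyte genes were higher there too: 2 of 3 tested rose, Cfd among them with 2.82, 6.03 and 2.33 CPM in hepatocytes labelled Tg, against 0.150, 0 and 0.0854 CPM in wild-type hepatocytes, and the part of other cells in these values was not tested. No run of 50 bases was shared among transcripts of the 3 actin genes. This search took exact matches only, and the read length is not given in the sources used here. Whether reads were misassigned among the actins was therefore not tested.

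**Figure D5:**
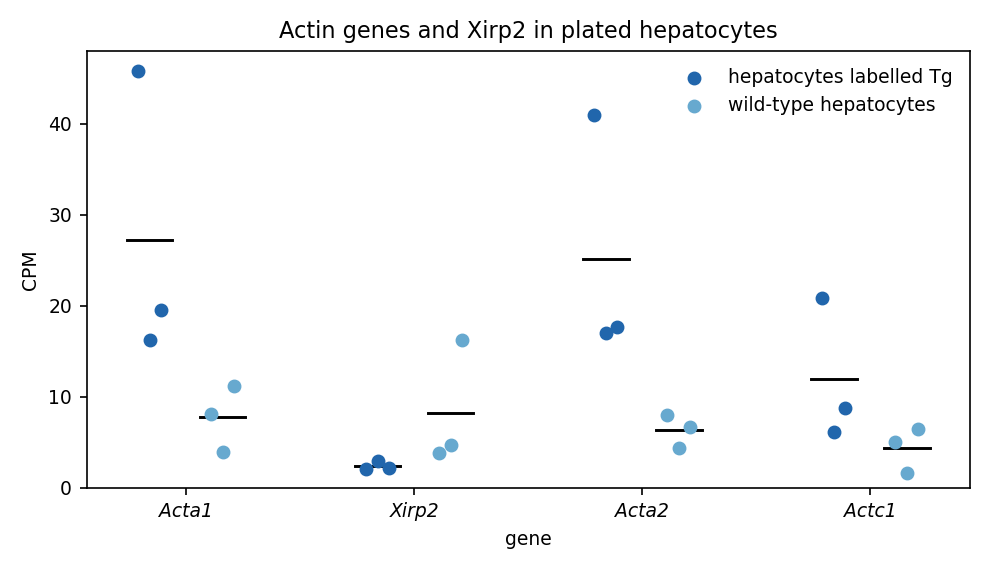
CPM of Acta1, Xirp2, Acta2 and Actc1 in 3 hepatocyte pools labelled Tg (dark) and 3 wild-type pools (light); horizontal bars are group means. Pool 1 labelled Tg is the highest for each of the 3 actins, and the Acta1 ranges (16.3 to 45.8 CPM against 3.98 to 11.2 CPM) do not overlap.

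CLIP libraries of Tg hepatocytes, with 6151 to 10902 counts each, held 45 member counts of 80854 in all (0.0557%; 95% Wilson interval 0.0416% to 0.0745%). Of the 30 genes 10 had a count. Ttn had 18 counts, Atp2a1 8, Ryr1 7 and Actn2 4, and the other 6 had 1 or 2 each. No control precipitate was analysed here, so these counts are levels and no measure of binding.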

How the data were processed

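RNA of 20 pools (14 liver, 6 hepatocyte) and 10 CLIP libraries was read. Per the submitters' processing notes the authors used bcl2fastq, STAR 2.0.4b, featureCounts 1.45 of Subread and GRCm38; strand setting, annotation release and read length are not given in the sources used here. Per the labels' protocols, RNA was selected with oligo(dT). The deposited count is the raw count per gene. The deposited CPM divides it by the library total (largest difference on recomputation 4.9e-10), and the deposited RPKM divides CPM by gene length (5.1e-11). No pair of libraries held identical counts.

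Identifiers were matched to symbols for 40254 of 41388 genes. Members, lists, tests and alternatives were chosen with earlier results of these data known. Each comparison was fitted on its own pools with edgeR 4.0.16 in R 4.3.3: filterByExpr (minimum count 10, minimum total 15), TMM, quasi-likelihood F-test, two-sided, Benjamini-Hochberg adjustment over all genes tested, threshold 0.05. Fold changes are log2 ± SE. DESeq2 1.42.0 was an alternative, beside other scaling, no filter, a replicate block, 1 shared fit and leaving out each pool. The fits were tested on simulated data. Summed CPM and shares of counts are descriptions; Wilson intervals (95%) and floors of 3 counts cover counting error only, and a share needed at least 100 counts. Genes were named by rule: all 30 members, up to 6 genes of highest CPM per other list, and the 10 genes most like the summed members (at least 1 CPM in at least 2 liver pools; numbered gene models left out). Xist, Ddx3y, A1cf and further genes called by a test, such as Jph1, were named after their values were seen. Exon overlaps and shared runs of 50 bases came from GENCODE M21, promoters from RefSeq (GRCm38.p6); those of Myh1 and Myh4 were added after their values were seen. A result on 1 further gene is not reported here.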

Additional observations from a re-analysis of the deposited data

Results flagged for a closer look

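In C57BL/6J liver pool 2 the summed CPM of the 30 muscle genes was 6406, far from the other 3 C57BL/6J pools, and 29 of the 30 genes stood apart there in the same way (all but Neb). The distance is the gap to the nearest pool over the group's range, which chance passes in about 1 in 20 groups of values not chosen beforehand. The genes were chosen for their levels in this pool, so that rate does not apply here and the values are a description. Of the thin filament, Acta1 was at 778 CPM, Tnnt3 at 250 CPM, Tnni2 at 118 CPM, Tnnt1 at 13.7 CPM, Tnni1 at 5.69 CPM and Tnnc2 at 0.395 CPM. Of the thick filament, Myh1 was at 324 CPM, Myh2 at 247 CPM, Myh4 at 113 CPM, Mylpf at 66.5 CPM, Myl1 at 27.2 CPM, Mybpc1 at 73.5 CPM and Mybpc2 at 37.0 CPM. Of the Z-disc and titin genes, Ttn was at 2747 CPM, Xirp2 at 116 CPM, Tcap at 55.8 CPM, Actn2 at 55.7 CPM, Myot at 34.9 CPM and Actn3 at 20.0 CPM. Of calcium handling, Atp2a1 was at 273 CPM, Ryr1 at 154 CPM, Cacna1s at 40.8 CPM, Casq1 at 20.2 CPM, Pvalb at 17.8 CPM and Trdn at 13.1 CPM. Of energy and oxygen supply, Ckm was at 174 CPM, Mb at 160 CPM, Cox6a2 at 38.8 CPM and Pgam2 at 18.8 CPM.

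Mybpc2 also stood apart in pool 4 of the livers labelled Tg, at 0.543 CPM, a level of few counts. In the CLIP data, which have no control precipitate here, library 4 held 5 Ttn counts and 4 Ryr1 counts, the highest of each gene in any CLIP library. They were picked as high among all members and CLIP libraries, so they are a description and no sign of enrichment.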

How the results depend on the processing

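Of 101 alternatives, 61 were classed as the same result, a class that allows the size to move. Summed muscle CPM in knockout minus C57BL/6NJ livers, 179, became 122 without knockout pool 1 and 257 without knockout pool 2, both in that class. Summed muscle CPM in livers labelled Tg minus C57BL/6J livers, -1557, ran from -2089 to 12.4 when a pool was left out, and the sign turned without C57BL/6J pool 2. The Myh4 share in C57BL/6J pool 2 (16.6%) was 18.0% per length and 15.2% with Myh7 in the total, and its slow troponin I share (1.97% per length) was 4.61% by counts.

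Knockout against C57BL/6NJ livers gave 475 genes, and 903 with DESeq2, 1079 without the filter, 61 in 1 fit over 4 liver groups and 137 to 645 with a pool left out. The 20 members called became 0 in the fit over 4 groups and 9 to 23 with a pool left out. Livers labelled Tg against C57BL/6J livers gave 188 genes, and 1242 with DESeq2. They gave 1353 in the fit over 4 groups and 27 to 561 with a pool left out. The members called were 0, and 14 of 28 lower in the fit over 4 groups, which included C57BL/6J pool 2. In that fit 583 of 16295 genes were lower. Hepatocytes gave 434 genes, and 2017 with DESeq2, 669 without the filter, 4323 in 1 fit over 6 groups and 0 to 4934 with a pool left out; the members called were 0, and 2 with DESeq2, 1 without the filter and 0 to 3 with a pool left out. The cause was not tested.

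Replicate numbers were not taken to pair the pools. Correlations of same-numbered pools ran from -0.150 to 0.0575 in the liver comparisons. In hepatocytes they were 0.686, -0.506 and -0.0308 for pools 1, 2 and 3, which does not settle whether those pools were paired. With the replicate block the genes called were 415 for knockout livers, 44 for livers labelled Tg and 21 for hepatocytes, and the members called were 20, 0 and 0. Pools of 3 to 4 mice and low counts outside 4 liver pools limit what these data can show.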

Other observations

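H19, an imprinted long RNA that is abundant in fetal liver and in developing muscle, was looked up after its values were seen. It was at 3.27, 0.522 and 1.79 CPM in knockout livers, against 0.232, 0.0590 and 0.254 CPM in C57BL/6NJ livers. It was at 13.8, 6.03, 876 and 248 CPM in livers labelled Tg, against 0.114, 79.3, 0.276 and 0.939 CPM in C57BL/6J livers. The high pools 3 and 4 labelled Tg were also the highest of their group for Myot, at 0.773 and 1.84 CPM, while Acta1 was at 0.531 and 0.163 CPM there.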
